A study of Mus musculus with 2 samples.

Results

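The cells described here were injury fibroblasts from the tendon injury site of the mouse that held transcripts of Pdzrn4, Ptx3 or Brinp1. They were chosen from single-cell RNA counts by a fixed set of limits on counts per 10000 UMIs of each cell (CP10K; a UMI is a molecular tag that counts 1 captured transcript). A selected cell had at least 50 CP10K over Col1a1, Col1a2 and Col3a1, at least 3 CP10K over Pdzrn4, Ptx3 and Brinp1, at most 1 UMI of the leukocyte gene Ptprc, and under 10 CP10K of the keratins Krt5 and Krt14. It also had under 20 CP10K of the contractile genes Acta2 and Tagln, under 3 of the tendon genes Tnmd and Kera, under 2 of the fascial genes Pi16 and Clec3b and under 2 of the division genes Top2a and Mki67. These limits found 711 of 19671 barcodes, 646 in the control library and 65 in the irradiated library. The genes of the limits are given below as a description, since they chose the cells.

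The study asked how radiotherapy after injury acts on mesenchymal cells in a mouse model of trauma-induced heterotopic ossification, the growth of bone inside soft tissue. Both groups were male C57BL/6 mice of 8 to 10 weeks with a burn of 30% of the body surface and a cut Achilles tendon, and tissue was taken 7 days after injury. The irradiated group had also received a single dose of 7 Gy to the injury site through a 2 cm collimator. The day of irradiation is worded unclearly in the labels. Each group was 1 library, and the number of mice pooled in it is not given. Library and treatment therefore cannot be told apart, and every interval below is a 95% interval that covers counting error only.

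Pdzrn4 encodes a RING-type protein with PDZ domains, and Brinp1 a protein first described in neurons that holds back the cell cycle. Ptx3 is a secreted pentraxin that fibroblasts and leukocytes make during inflammation. It binds microbes and stabilises the hyaluronan matrix of injured tissue. Sfrp2 is a secreted antagonist of Wnt signalling that is common in fibroblasts of skin and fascia. Fibroblasts of an injured tendon lay down provisional matrix and can give rise to the cartilage that precedes heterotopic bone.

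In GRCm38 coordinates with GENCODE M21 annotation, Pdzrn4 lies on the plus strand at chr15:92396881-92771819 and Ptx3 on the plus strand at chr3:66219910-66225805. Brinp1 lies on the minus strand at chr4:68761514-68954397, and Sfrp2 on the plus strand at chr3:83766321-83774316. UMIs are counted over the whole gene, so exon or isoform use cannot be read from them.

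The 2 libraries held 11369 and 8302 barcodes with medians of 10423 and 9118 UMIs, and 9240 and 7190 passed the cell filter (control first here and below). Selected cells were deeper than most, with medians of 25829 and 41527 UMIs and of 5509 and 6492 genes. Mitochondrial transcripts made up a median of 4.68% and 3.70% of their UMIs. The libraries shared 32 barcode sequences, none of them among the selected cells. A doublet score marked 32 of the 646 control cells (4.95%) and 16 of the 65 irradiated cells (24.6%), against 9.09% and 6.64% of all barcodes. Leaving the fat list aside, a marker list of another cell type reached 10 CP10K in 54 control cells (8.36%) and 4 irradiated cells (6.15%), 25 and 2 of them by keratinocyte genes. The fat list, whose most abundant gene Fabp4 is not restricted to fat cells, reached it in 63 control cells (9.75%) and 7 irradiated cells (10.8%). It summed to 477 and 401 CPM, with Cidec at 0 in both libraries and Adipoq and Plin1 at 0 in the irradiated cells. Cells past the fat list were kept throughout, and their part was not tested. Values without the other cells are given wherever they change a result, and the part of such cells was otherwise not tested.

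The fibroblast label held on genes outside the limits. Dcn, a collagen-binding proteoglycan, had a median of 26.0 CP10K per control cell and 27.1 per irradiated cell. Lum, a related proteoglycan, had medians of 16.03 and 16.54. Pdgfra, the PDGF receptor of mesenchymal cells, was at 174 UMIs per 1000000 (CPM, the summed UMIs of all selected cells of a library scaled to 1000000) and 185. Prrx1, a limb mesenchyme transcription factor, was at 229 CPM in both libraries. These 4 genes differed little between the libraries. The macrophage list of 12 genes summed to 151 and 153 CPM. The keratinocyte list of 10 genes summed to 471 and 837 CPM.

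The selected cells made up a smaller share of the collagen-expressing cells in the irradiated library. They were 646 of 2558 such cells in the control library, 25.3% with an exact Clopper-Pearson interval of 23.6 to 27.0%. In the irradiated library they were 65 of 667, 9.75% (7.602 to 12.3%). The irradiated share was 2.59-fold lower (interval 2.01 to 3.40). Of all barcodes past the filter, the selected cells were 6.99% and 0.904%, and collagen cells as a whole were 27.7% and 9.28%. Shares depend on how each cell type survived digestion, which was not measured.

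Part of the difference in share arose at the limits that leave cells out. Cells past the marker minimum, before the upper limits, were 38.4% of control collagen cells and 22.3% of irradiated collagen cells. The limit on Pi16 and Clec3b removed 8.46% of these in the control library and 45.0% in the irradiated library. The limits on tendon genes removed 13.3% and 6.04%, and those on division genes 8.97% and 5.37%. Fascial cells past 2 CP10K of Pi16 and Clec3b were 9.93% of control collagen cells and 33.9% of irradiated collagen cells. Collagen cells under the marker minimum that passed every other limit, called marker-low cells below, held a near-equal share of 22.6% and 21.6%. A marker list of another cell type other than fat reached 10 CP10K in 24.8% and 27.1% of these marker-low cells, most often by pericyte genes. The minimum did not fall in a gap: the cells just inside it had 3.01 and 3.00 CP10K, and those just outside 2.99 and 2.88. From 3 to under 4 CP10K there were 54 and 11 cells, and from 2 to under 3 there were 89 and 10.

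The 3 genes of the marker sum were not kept alike. Ptx3 was at 863 CPM in the control library and 900 CPM in the irradiated library. Pdzrn4 was at 615 and 184 CPM, a log2 ratio of irradiated over control of -1.74. Brinp1 was at 186 and 43.3 CPM, a log2 ratio of -2.10. The irradiated cells were thus chosen mostly by Ptx3. With Pdzrn4 and Brinp1 alone as markers, the limits found 14.0% of control and 2.55% of irradiated collagen cells. Ptx3 alone passed 3 CP10K in 257 of 646 control cells (39.8%) and in 45 of 65 irradiated cells (69.2%). As shares of collagen cells these were 10.05% and 6.75%, a log2 ratio of -0.57. Pdzrn4 and Brinp1 together passed it in 358 (55.4%) and 17 (26.2%). Both conditions held in 250 control cells (38.7%) and 9 irradiated cells (13.8%).

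**Figure D1:**
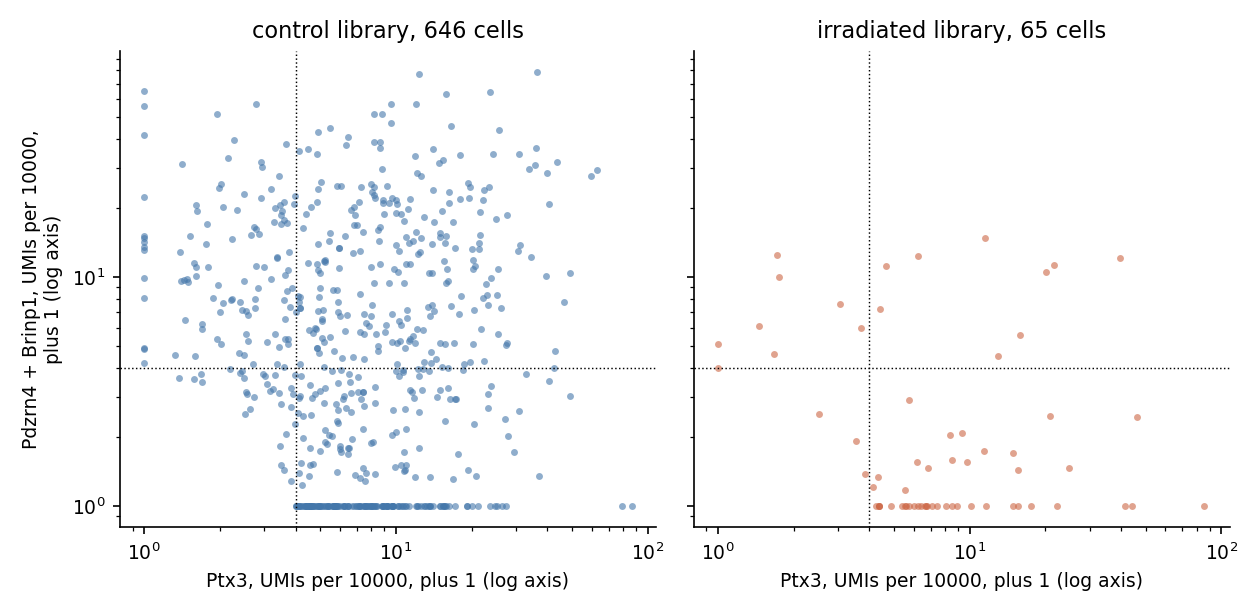
Each point is 1 selected cell of the control library (646 cells) or the irradiated library (65 cells), with Ptx3 on the x axis and Pdzrn4 plus Brinp1 on the y axis, both in UMIs per 10000 plus 1 on log axes. Most irradiated points lie along the bottom, where Ptx3 alone passes the minimum of 3, while the control cells are spread over both axes.

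Between cells, Ptx3 ran from 0 to 85.5 CP10K in the control library, with a median of 6.10, and from 0 to 84.1 in the irradiated library, with a median of 5.72. Pdzrn4 had medians of 2.05 and 0 and maxima of 77.0 and 12.3. The ranges of Ptx3 overlapped almost completely, while the upper range of Pdzrn4 was missing from the irradiated cells. After thinning each cell to 5000 UMIs, 53.1% of control cells and 26.7% of irradiated cells held a Pdzrn4 UMI, against 63.9% and 38.5% before thinning. Leukocytes, which should lack Pdzrn4, held one in 0.434% and 0.103% of thinned cells at median depths of 7450 and 8996 UMIs. Keratinocytes held one in 4.21% and 10.9% of thinned cells.

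Sfrp2 is not a gene of the limits, and it was lower in the irradiated cells. It stood at 1238 CPM in the control library and 287 CPM in the irradiated library, a log2 ratio of -2.11 (-2.22 to -2.001). Its median per cell was 7.73 CP10K in the control library, with a middle range of 2.86 to 17.9, and 1.14 in the irradiated library, with a middle range of 0 to 3.38. The middle ranges overlapped over a narrow span. After thinning, 84.9% and 48.3% of cells held a Sfrp2 UMI, against 94.9% and 72.3% unthinned, beside 3.20% and 0.172% of thinned leukocytes. The difference was not particular to the selected cells: Sfrp2 had a log2 ratio of -1.91 in marker-low cells and -2.96 in contractile cells. It was near equal in the fascial cells, at 998 and 793 CPM. Within the selected cells it had a log2 ratio of -1.99 where Ptx3 alone passed the minimum and of -2.02 where Pdzrn4 and Brinp1 passed it.

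For all genes, a gene was called higher or lower when its summed CPM differed by at least 1.5-fold and the interval left out equality, among 13928 genes with at least 20 UMIs over both libraries. By this rule 1114 genes (8.00%) were higher and 1140 (8.18%) lower in the irradiated cells, and the median log2 ratio of all genes was -0.05. These percentages are the background for the gene lists below. With 1 library a group they describe these libraries, and a call is no test of irradiation. The 15 genes farthest above equality were Ccl5, Cck, Ak9, Cxcl9, Krt2, Cxcl13, Ano3, Ccl11, Irf7, Cxcl3, Ifi27l2a, Ifi44, Isg15, Bex1 and Apod. In 8 of these 15, over 50% of the irradiated UMIs came from 1 cell. The chemokine Ccl5, for example, had 92.9% of them in 1 cell, and Apod, a lipid-binding lipocalin, had 54.3%. Of the 15 genes farthest below equality, 4 rested in the same way on 1 control cell, the keratin Krt77 and the carbonic anhydrase Car3 among them.

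**Figure D2:**
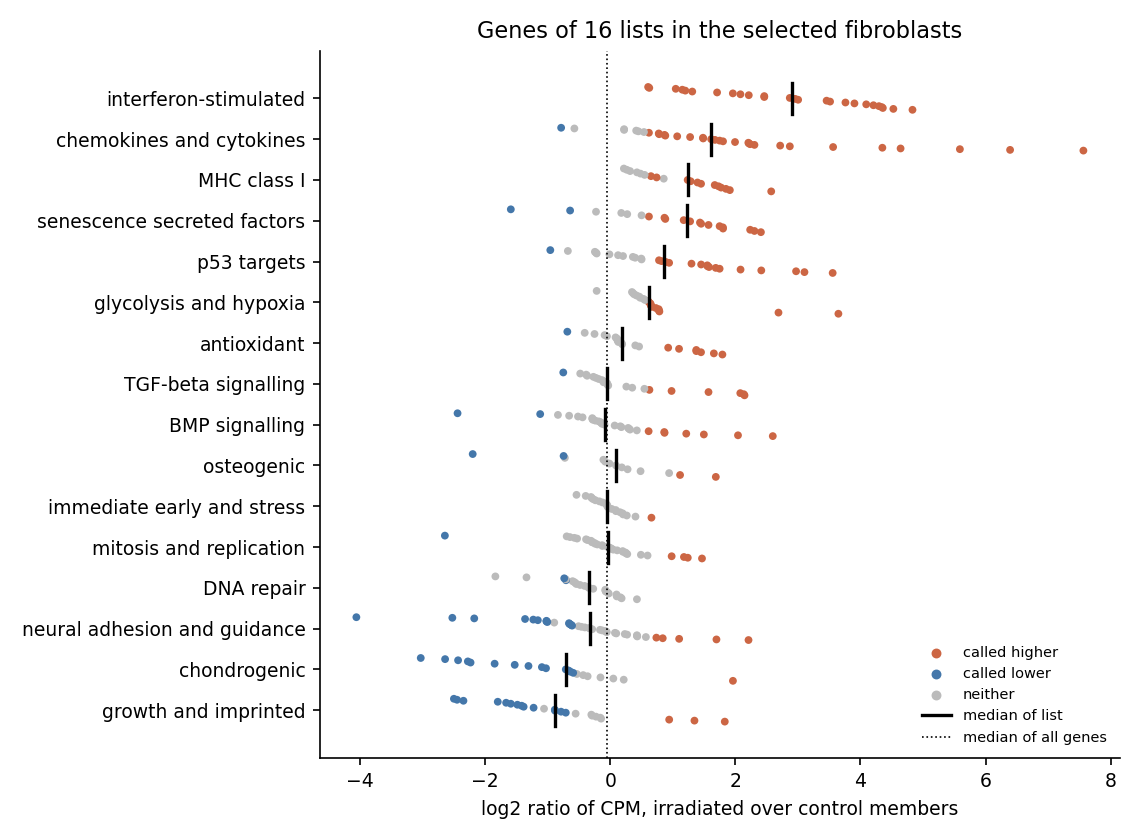
Each point is 1 gene of a list, placed by its log2 ratio of irradiated over control in the selected cells on the x axis, with 16 lists on the y axis. The interferon-stimulated genes all lie above 0, with a median of 2.91, while the chondrogenic and the growth and imprinted genes lie mostly below it.

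Interferon-stimulated genes were higher in the irradiated cells without exception. All 26 tested genes of the list were called higher, with a median log2 ratio of 2.91 beside -0.05 over all genes. Irf7, the transcription factor that amplifies interferon production, was at 1.28 CPM in control and 36.3 CPM in irradiated cells. Isg15, a ubiquitin-like modifier, was at 8.81 and 132 CPM, a log2 ratio of 3.904 (3.62 to 4.20). Bst2, or tetherin, which holds budding virus at the cell surface, was at 30.0 and 343 CPM, a log2 ratio of 3.51 (3.35 to 3.68). Ifi44, a target of type I interferon, had a log2 ratio of 4.36, Ifi27l2a one of 4.34, the translation inhibitor Ifit1 one of 3.76 and Usp18, the protease that removes Isg15, one of 4.09. The antiviral enzyme Rsad2 had a log2 ratio of 4.30, with 63.2% of its irradiated UMIs in 1 cell. The Ifit, Oas and Mx genes have close copies, so the split of their reads between copies is uncertain.

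Most irradiated cells took part in this difference. The list summed to a median of 1.54 CP10K per control cell, with a highest value of 46.3, and to a median of 8.67 per irradiated cell, with a lowest value of 1.08 and a highest of 133. The middle range was 0.788 to 2.64 in control cells and 4.27 to 18.8 in irradiated cells, so the middle ranges did not overlap while the extremes did. After leaving out the cells past 10 CP10K on a list of another cell type other than fat, 25 of 26 genes were still called higher, and after leaving out doublet-marked cells also 25 of 26. At 5000 UMIs per cell the limits were applied again, which chose 569 control and 53 irradiated cells. Fewer genes could be tested there, and 14 of 18 were called higher, beside 556 of all 9931 genes tested. The macrophage list was near equal in sum over all selected cells of the libraries, but went in opposite directions in the subsets described below. Its part in the interferon difference was not tested.

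The difference was present in the other collagen cells too. In marker-low cells, where 1070 of 14236 genes (7.52%) were called higher and 1047 (7.35%) lower, the log2 ratio of all 28 tested interferon-stimulated genes passed the limit for higher, at a median of 2.35. The list median was 1.68 in fascial cells and 3.40 in contractile cells. Irf7 had log2 ratios of 3.74, 3.65 and 5.08 in these 3 groups, beside 4.83 in the selected cells. Whether the size differs between groups was not tested.

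Promoter sequences of 3 of these genes show the letters that interferon-activated factors read. The windows below are the 250 bases before the RefSeq transcription start, 5′ to 3′ on the gene's strand, in GRCm38.p6. Capitals mark matches of GAAANNGAA on either strand, overlapping matches included. They are printed for genes with a large difference and several matches. The Isg15 window is chr4:156200819-156201068 on the minus strand and has 3 matches, the nearest 58 bases before the start. The Ifit1 window is chr19:34640639-34640888 on the plus strand and has 3, the nearest at 76 bases. The Bst2 window is chr8:71537473-71537722 on the minus strand and has 2, the nearest at 116 bases.
Isg15: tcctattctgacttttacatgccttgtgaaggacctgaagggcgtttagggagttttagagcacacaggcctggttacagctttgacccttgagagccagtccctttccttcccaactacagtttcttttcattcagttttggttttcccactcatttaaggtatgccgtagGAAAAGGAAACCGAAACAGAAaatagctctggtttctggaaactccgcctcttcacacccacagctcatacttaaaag
Ifit1: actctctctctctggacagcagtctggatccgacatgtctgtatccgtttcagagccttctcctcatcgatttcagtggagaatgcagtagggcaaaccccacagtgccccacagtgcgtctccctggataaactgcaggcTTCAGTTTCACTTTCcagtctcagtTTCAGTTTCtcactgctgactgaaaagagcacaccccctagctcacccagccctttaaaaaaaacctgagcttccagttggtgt
Bst2: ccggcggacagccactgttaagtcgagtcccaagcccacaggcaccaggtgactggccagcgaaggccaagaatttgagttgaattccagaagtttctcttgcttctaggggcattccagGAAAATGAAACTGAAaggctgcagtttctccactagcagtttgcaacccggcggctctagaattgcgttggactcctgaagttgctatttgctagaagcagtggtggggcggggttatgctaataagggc
Of the 26 tested interferon-stimulated genes 20 had a RefSeq promoter entry, and 12 of these 20 (60.0%) held a match within the window. A match was present for 2211 of 27025 genes with an entry (8.18%) and for 785 of 10630 tested genes with an entry (7.38%). It was present for 102 of 829 genes called higher (12.3%), which include the 20 of the list, and for 71 of 847 called lower (8.38%). The windows of Irf7, Ifi44, Ptx3, Sfrp2 and Cdkn1a held none, and that of Brinp1 held 1. A match is a description of letters only.

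Targets of p53, the transcription factor activated by DNA damage, formed another group with higher levels. Of 28 tested genes 16 were called higher and 1 lower, with a median log2 ratio of 0.85. Cdkn1a, which encodes the cell cycle inhibitor p21, was at 30.8 CPM in control and 265 CPM in irradiated cells, a log2 ratio of 3.10 (2.94 to 3.28). Eda2r, a receptor of the TNF receptor family, was at 4.37 and 34.3 CPM, a log2 ratio of 2.97. Phlda3, an inhibitor of Akt, was at 33.0 and 140 CPM, a log2 ratio of 2.08. These 3 genes did not rest on single cells, as no irradiated cell gave more than 14.3% of their UMIs. Trp53inp1, Ccng1 and Mdm2, the ubiquitin ligase that limits p53, had log2 ratios of 2.41, 1.75 and 1.30, and the epoxide hydrolase Ephx1, a known p53 target outside the list, one of 3.21.

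Not every p53 target was higher. Btg2, an antiproliferative gene, was at 182 and 240 CPM, below the 1.5-fold limit. Sesn1, a stress-induced regulator of mTOR, was lower at 83.3 and 42.9 CPM, a log2 ratio of -0.96. Gdf15, a secreted stress factor, was at 1.64 and 4.49 CPM with 72.7% of the irradiated UMIs in 1 cell, and without each library's highest cell its log2 ratio was -0.02. The list summed to medians of 8.10 and 12.5 CP10K per cell, with middle ranges of 6.25 to 10.3 and 8.16 to 24.1 that overlapped. In the cells chosen again at 5000 UMIs per cell, 9 of 24 tested genes were called higher. In marker-low cells 17 of 28 tested genes were higher, with a median of 0.94, and Cdkn1a had a log2 ratio of 2.66 there.

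**Figure D3:**
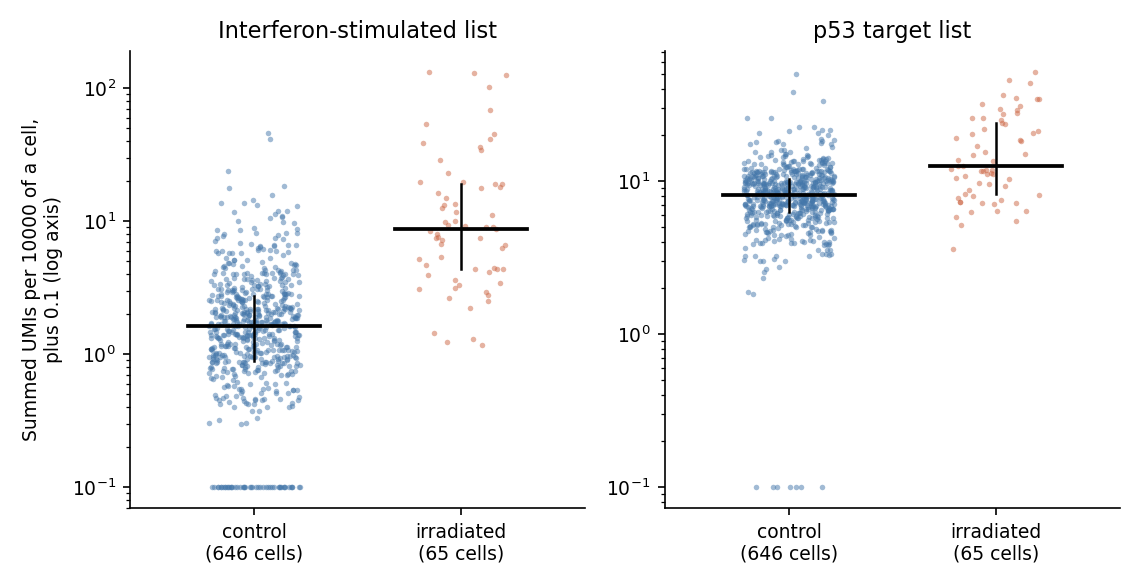
Each point is 1 selected cell, and the y axes give the summed level of a gene list in UMIs per 10000 plus 0.1 on a log scale, for 646 control and 65 irradiated cells, with black lines at the median and from the lower to the upper quartile. The interferon-stimulated sum has a median of 1.54 in control and 8.67 in irradiated cells, with a wide spread among the irradiated cells.

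Chemokines and cytokines were higher in 26 and lower in 1 of 33 tested genes, with a median log2 ratio of 1.61. The list summed to a median of 22.5 CP10K per control cell and 50.3 per irradiated cell. Ccl2, which draws monocytes, was at 222 CPM in control and 1096 CPM in irradiated cells, a log2 ratio of 2.31. Cxcl5, a neutrophil chemokine, was at 627 and 1918 CPM, a log2 ratio of 1.61. Both genes were among the more abundant of the list. Cxcl14, a chemokine of epithelia and fibroblasts, was at 109 and 715 CPM, a log2 ratio of 2.72. Il11, an IL-6 family cytokine made by activated fibroblasts, was at 3.52 and 41.6 CPM, and its relative Lif at 4.80 and 35.1 CPM. They lay in 18 and 16 irradiated cells, with 32.4% and 29.1% of the irradiated UMIs in 1 cell. That share was 29.9% for Ccl2, 28.7% for Cxcl14 and 10.5% for Cxcl5. It was 92.9% for Ccl5 and 77.9% for Cxcl9, which are among the list genes called higher. Il1rl1, the receptor of IL-33 and not a member of the list, was at 83.0 and 378 CPM. Cxcl12, which keeps leukocytes and progenitors in tissue, was the gene called lower, at 800 and 464 CPM. Its log2 ratio of -0.79 was 0.15 with the upper limits dropped. Saa3, an acute-phase protein, was at 372 and 434 CPM, with 59.6% of the irradiated UMIs in 1 cell.

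Several of these values moved when the doublet-marked cells were left out. Without them the log2 ratio was 1.29 for Ccl2, 2.54 for Il11, 1.95 for Lif and 3.24 for Cxcl3. Cxcl1, a neutrophil chemokine, was at 289 and 444 CPM, a log2 ratio of 0.62, and without doublet-marked cells its log2 ratio was -0.04. Its relative Cxcl2 had a log2 ratio of 0.87 with these cells and 0.06 without them. Il6, a central inflammatory cytokine, had values of 0.88 and 0.51. The log2 ratio of Saa3 was 0.22 with them and -2.55 without them. The macrophage, neutrophil and T cell lists were at summed levels of 151, 57.4 and 4.19 CPM in the control and 153, 60.0 and 4.08 CPM in the irradiated cells.

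In the other collagen cells part of the list was also higher. Of all genes, 5.96% were higher and 8.88% lower in fascial cells, and 12.4% and 11.1% in contractile cells. The list had 16 of 34 tested genes higher and 2 lower in marker-low cells, 15 of 33 higher and 2 lower in fascial cells, and 21 of 33 higher and 7 lower in contractile cells, with median log2 ratios of 0.56, 0.53 and 1.36. Ccl2 had log2 ratios of 0.59, 0.52 and 1.57 in these groups, and Cxcl5 of 0.54, -0.16 and -1.02. Il11 was at 11.3 and 14.3 CPM in marker-low cells. The macrophage list was at 245 and 89.1 CPM in marker-low, 217 and 112 CPM in fascial and 181 and 323 CPM in contractile cells, and its part was not tested. These values are side by side only, and the difference between the groups was not tested.

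The selected cells fell into subsets by the gene that chose them, and the same contrast was taken in each. Some inflammatory genes had opposite signs in the subsets. The subset with Ptx3 alone past the minimum had 884 of 12091 genes (7.31%) higher and 1004 (8.30%) lower. The subset with Pdzrn4 and Brinp1 past the minimum had 845 of 12428 genes (6.80%) higher and 859 (6.91%) lower, over only 17 irradiated cells. Of the chemokines and cytokines 24 of 30 tested were higher in the first subset, with a median of 1.75. In the second 10 of 26 were higher and 4 lower, with a median of 0.65. Cxcl1 was at 362 and 584 CPM in the first subset and at 243 and 107 CPM in the second. Cxcl2 was at 89.0 and 223 CPM, and at 83.4 and 31.6 CPM. The directions of these 2 genes were opposite in the 2 subsets. Il6 was at 36.2 and 95.6 CPM, and at 47.3 and 28.6 CPM. The macrophage list went from 115 to 201 CPM in the first subset, with 6 of 11 tested genes higher and 1 lower. In the second it went from 178 to 61.7 CPM, with none of 11 higher and 6 lower. Its part in these values was not tested, nor was the difference between the subsets.

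**Figure D4:**
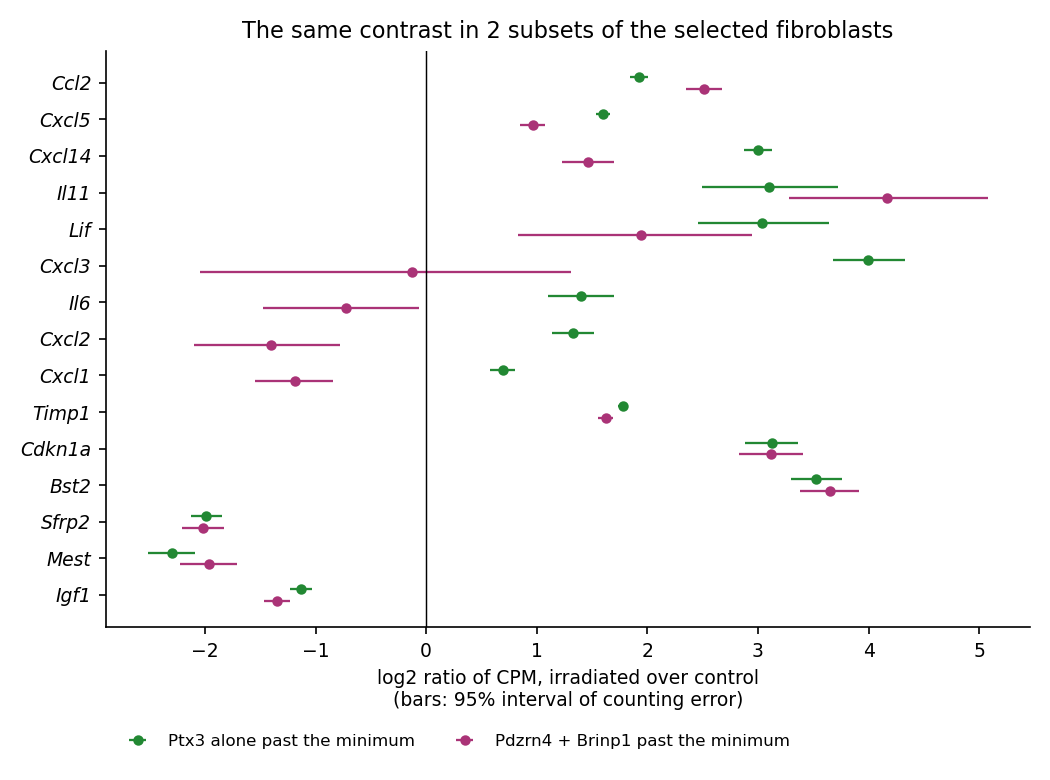
For named genes, the x axis gives the log2 ratio of irradiated over control in the selected cells with Ptx3 alone past the minimum, and in those with Pdzrn4 and Brinp1 past it, with 95% intervals of counting error. Cdkn1a and Bst2 lie at overlapping ratios in both subsets, while Cxcl1, Cxcl2 and Il6 lie on opposite sides of 0.

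Other genes had the same direction in both subsets. Bst2 had log2 ratios of 3.53 in the Ptx3 subset and 3.65 in the Pdzrn4 and Brinp1 subset, and Cdkn1a of 3.12 in each. Ccl2 had 1.93 and 2.51, and Il11 3.10 and 4.17. Timp1, an inhibitor of matrix metalloproteinases, had 1.78 and 1.62. Mest, an imprinted gene of the hydrolase family, had -2.30 and -1.96, and Igf1, the insulin-like growth factor, -1.13 and -1.35. The interferon-stimulated list had 23 of 24 tested genes higher in the first subset and 18 of 22 in the second, with medians of 3.13 and 1.89.

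Genes of antigen presentation were higher. Of 19 tested MHC class I genes 12 were called higher and none lower, with a median log2 ratio of 1.24. B2m, the light chain of class I molecules, was at 224 and 612 CPM, a log2 ratio of 1.45. The heavy chain genes H2-D1 and H2-K1 were at 77.7 and 280 CPM and at 137 and 334 CPM. They are close copies, so reads may be split between them. Tap1, the peptide transporter, was at 7.29 and 24.9 CPM, and the immunoproteasome subunit Psmb8 at 10.2 and 33.9 CPM. None of these 5 genes had over 18.03% of the irradiated UMIs in 1 cell.

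Secreted factors listed for senescent cells were higher in 14 and lower in 2 of 20 tested genes, with a median log2 ratio of 1.23. The list shares Ccl2 and other genes with the chemokine list. Timp1 was at 1220 CPM in control and 4253 CPM in irradiated cells, a log2 ratio of 1.801 (1.77 to 1.84). Mmp3, or stromelysin, was at 207 and 1099 CPM, a log2 ratio of 2.41, which was 1.54 without doublet-marked cells. Among all 43 tested proteases and inhibitors 12 were higher and 7 lower, with a median of -0.08, and the gelatinase Mmp2 was at 1209 and 1159 CPM. Timp1 had a log2 ratio of 1.17 in marker-low cells and -0.32 in fascial cells.

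TGF-beta signalling genes had no common direction, with 6 of 22 higher, 1 lower and a median of -0.05. Inhba, a subunit of activin A, was at 29.9 and 127 CPM, a log2 ratio of 2.08. Lrrc32, which presents latent TGF-beta at the cell surface, was at 10.3 and 45.7 CPM, a log2 ratio of 2.15. Smad3, an intracellular mediator, was lower at 117 and 69.8 CPM. BMP signalling genes had 7 of 29 higher and 2 lower with a median of -0.09, and the ligand Bmp2 was at 15.9 and 44.9 CPM with 40.9% of the irradiated UMIs in 1 cell.

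Growth factors and imprinted genes were mostly lower. Of 24 tested genes 14 were called lower and 3 higher, with a median log2 ratio of -0.88. The list summed to a median of 107 CP10K per control cell and 56.4 per irradiated cell. Igf1 was at 1758 CPM in control and 628 CPM in irradiated cells, a log2 ratio of -1.48 (-1.56 to -1.41). Mest was at 671 and 132 CPM, a log2 ratio of -2.35 (-2.51 to -2.19). H19, an imprinted noncoding RNA, was at 1026 and 324 CPM, and the cell cycle inhibitor Cdkn1c at 82.5 and 15.1 CPM. Ptn, the growth factor pleiotrophin, was at 1025 and 295 CPM, and Igfbp5, which binds IGFs, at 1200 and 399 CPM. Igfbp4 was at 2368 and 1613 CPM, short of the 1.5-fold limit. In marker-low cells 11 of 24 tested genes were lower, with a median of -0.41. Mest, Ptn and Igf1 had log2 ratios of -3.25, -2.36 and -1.10 there.

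Chondrogenic genes were lower in 14 and higher in 1 of 21 tested, with a median log2 ratio of -0.71. Sox9, the transcription factor of cartilage, was at 213 and 137 CPM, a log2 ratio of -0.64. Col9a2, a cartilage collagen chain, was at 25.4 and 4.08 CPM, a log2 ratio of -2.64. Ucma, a secreted cartilage matrix protein, was at 26.7 and 3.27 CPM, with only 8 irradiated UMIs. Comp, a cartilage and tendon glycoprotein, was at 297 and 187 CPM. The low-abundance genes of the list rested on few irradiated cells: Col2a1, the main cartilage collagen, had 521 control UMIs in 93 cells and 16 irradiated UMIs in 3 cells. In the cells chosen again at 5000 UMIs per cell, its log2 ratio was 0.07. Without each library's highest cell the log2 ratio of Cnmd was -4.97 in place of -2.43, with 85.7% of its 7 irradiated UMIs in 1 cell.

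Acan and Col11a1 were not called lower. Acan, or aggrecan, was at 480 and 558 CPM, and Col11a1 at 1368 and 1013 CPM, a log2 ratio of -0.43 that fell short of the 1.5-fold limit. Prg4, or lubricin, was the 1 gene of the list called higher, at 463 and 1803 CPM. In marker-low cells the list had 2 genes higher and 9 lower of 21 tested, with a median of -0.37. Osteogenic genes had 2 higher and 2 lower of 13 tested, with a median of 0.09. Runx2, the transcription factor of bone, was at 180 and 167 CPM. Alpl, the alkaline phosphatase of mineralising cells, was at 13.1 and 2.86 CPM with 7 irradiated UMIs, and Sparc, a collagen-binding glycoprotein, at 8345 and 8892 CPM. Postn, or periostin, was at 5169 and 3082 CPM. Spp1, or osteopontin, was at 278 and 896 CPM with 53.03% of the irradiated UMIs in 1 cell, and its log2 ratio of 1.69 was 0.13 without doublet-marked cells.

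Wnt genes were lower more often than higher in the selected cells, by a small margin for the antagonists. Of 25 ligands, receptors and targets tested 6 were lower and 2 higher, with a median log2 ratio of -0.21. Rspo2, a secreted enhancer of Wnt signalling, was at 59.8 and 11.02 CPM, a log2 ratio of -2.44. Its receptor Lgr4 was at 102 and 38.4 CPM, a log2 ratio of -1.41. Both the ligand and the receptor were thus lower. Of 12 antagonists 3 were lower and 2 higher, with a median of -0.47, and Sfrp1, the relative of Sfrp2, was at 1697 and 1275 CPM. In marker-low cells 7 of 29 ligands, receptors and targets were higher and 4 lower, and 6 of 12 antagonists higher and 2 lower. The first list had 3 of 26 higher and 4 lower in fascial cells, and 6 of 23 higher and 8 lower in contractile cells. The antagonists had 1 of 10 higher and 2 lower, and 2 of 9 higher and 4 lower. The difference between these groups was not tested.

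Genes of neural adhesion and guidance, which fibroblasts also use, were lower in 14 and higher in 5 of 39 tested, with a median of -0.32. Robo1, a Slit receptor, was at 504 and 249 CPM, a log2 ratio of -1.02. Lsamp, a surface adhesion protein, was at 165 and 31.8 CPM, a log2 ratio of -2.37. Outside the list, Brinp3, the relative of Brinp1, was at 321 and 108 CPM, and Piezo2, a mechanically gated channel, at 276 and 85.7 CPM. Kcnip4, a potassium channel subunit, was at 83.4 and 11.4 CPM, in only 3 irradiated cells. Sema3a, a repellent guidance molecule, was called higher at 26.4 and 85.7 CPM with 54.3% of the irradiated UMIs in 1 cell. The Schwann cell list stood at 24.8 and 17.1 CPM, with its defining gene Sox10 at 0 in both libraries.

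Matrix genes were mostly level. Of 20 fibrillar and other collagens outside the limits 4 were higher and 3 lower, with a median log2 ratio of 0.29. Col5a2, which regulates fibril width, was at 2421 and 2591 CPM. Col14a1, a fibril-associated collagen, was at 301 and 97.5 CPM, a log2 ratio of -1.63. With the upper limits dropped, so that fascial cells entered, the log2 ratio of Col14a1 was 0.40. Of 40 proteoglycans and glycoproteins 7 were higher and 9 lower, with a median of -0.01. Aspn, or asporin, was at 1478 and 678 CPM, and Ogn, or osteoglycin, at 552 and 249 CPM.

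The hyaluronan matrix, to which Ptx3 belongs, had 4 of 15 tested genes higher and 1 lower, with a median log2 ratio of 0.18. Tnfaip6, which transfers heavy chains to hyaluronan and binds Ptx3, was at 368 and 408 CPM. The synthase Has2 was at 140 and 158 CPM. Neither reached the 1.5-fold limit. Ptx3 itself helped to choose the cells, so its near-equal level is a description only. Has1, another synthase, was at 23.6 and 58.0 CPM, a log2 ratio of 1.30. Cd44, the hyaluronan receptor, was at 344 and 560 CPM, a log2 ratio of 0.70.

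Metabolic and stress genes were higher in part. Of 21 glycolysis and hypoxia genes 12 were higher and none lower, with a median log2 ratio of 0.62. Pkm, the pyruvate kinase, was at 477 and 744 CPM, and the carbonic anhydrase Car9 at 2.25 and 28.2 CPM with 46.4% of the irradiated UMIs in 1 cell. Vegfa, the angiogenic factor, was at 39.4 and 107 CPM. Antioxidant genes had 7 of 21 higher and 1 lower, with a median of 0.18. Within that list the metallothioneins Mt1 and Mt2 were at 311 and 982 CPM and at 205 and 711 CPM, and Sod3, the extracellular superoxide dismutase, at 277 and 757 CPM. Immediate early genes were level, 1 of 22 being higher and none lower, and Fos was at 885 and 841 CPM.

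Cycling and repair genes differed little, in cells chosen to be low in Top2a and Mki67. Of 32 mitosis and replication genes 4 were higher and 1 lower, with a median of -0.03, and Pcna was at 56.6 and 54.7 CPM. Ccnd2, a cyclin of the growth phase, was at 81.0 and 160 CPM. Of 25 DNA repair genes none was higher and 2 were lower, with a median of -0.34. Of 20 cell death regulators 1 was higher, Bax, at 122 and 216 CPM, and 2 were lower. Fascial genes had no common direction, with 7 of 17 higher and 4 lower, a median of 0.39 and log2 ratios from -2.60 to 2.39. Among the higher ones were Ly6a, or Sca-1, at 255 and 724 CPM and Ly6c1 at 42.5 and 147 CPM. Endothelial markers were lower in all 8 genes, at summed levels of 87.9 and 15.5 CPM with Cldn5, Kdr and Tie1 at 0 in the irradiated cells. Their part in the genes called lower was not tested.

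Within each library the selected cells were also set beside the marker-low cells, as a description, since the marker genes were measured in the same cells. At 2-fold or more in both libraries, 63 of 11942 genes (0.528%) were higher in the selected cells and 478 were lower. Marker lists of other cell types were reached in 24.8% of control and 27.1% of irradiated marker-low cells, beside 8.36% and 6.15% of selected cells. Granzymes were among the 63. Gzmc, a serine protease better known from cytotoxic lymphocytes, was at 5.81 CPM in marker-low and 47.1 in selected control cells, and at 2.42 and 42.9 CPM in the irradiated library. Gzme was at 5.66 and 73.7 CPM in the control library and at 0.726 and 13.9 CPM in the irradiated library, the last with 17 of its 34 UMIs in 1 cell. Gzmd was at 1.89 and 23.4 CPM in the control library and at 0 and 8.98 CPM in the irradiated library, where its 22 UMIs lay in 3 cells and 86.4% of them in 1. These granzymes are near copies of each other, so reads may be split between them. The T and NK cell list of 8 genes summed to 4.19 and 4.08 CPM in the selected cells, with Cd2 and Nkg7 at 0 in both libraries and Cd3d, Cd3e, Cd3g and Il7r at 0 in the irradiated cells. No selected cell reached 10 CP10K on that list, and Gzmc UMIs were present in 241 control and 17 irradiated selected cells.

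Slpi, an inhibitor of leukocyte proteases, was at 312 CPM in marker-low and 1211 in selected control cells, and at 280 and 987 CPM in the irradiated library. Aqp5, a water channel, was at 32.4 and 119 CPM and at 12.6 and 109 CPM. Slc1a3, a glutamate transporter, was at 131 and 420 CPM and at 33.9 and 209 CPM. All 3 were thus above the marker-low cells in each library. Pappa2, a protease of IGF-binding proteins, had log2 ratios over marker-low cells of 2.29 and 2.72, and Artn, a neurotrophic ligand of the GDNF family, of 1.75 and 2.48. Wfdc3, a whey acidic protein relative of Slpi, had 3.06 and 2.41. Tnfsf11, or RANKL, which drives osteoclast formation, was at 50.8 and 120 CPM in the control library and at 31.2 and 206 CPM in the irradiated library. Acan was at 204 and 480 CPM and at 222 and 558 CPM. Keratinocyte lists reached 10 CP10K in 25 control and 2 irradiated selected cells, and Slpi and Aqp5 are also epithelial genes, whose source was not tested.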

How the data were processed

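Single cells of 2 libraries were measured with 10x Genomics droplets. What the authors deposited are unnormalised counts of UMIs for each barcode and gene. The submitters' processing notes name Cell Ranger 5 and the build mm10, and the file headers give version 5.0.1. Further filters by the authors are not given in the sources used here. Each library was mapped to its group from its labels.

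Barcodes needed 500 genes and 1000 UMIs, with no more than 10% of UMIs mitochondrial, and the limits of the opening paragraph were applied. UMIs were summed over the selected cells of a library and scaled to 1000000 (CPM). Genes needed 20 UMIs over both libraries. A log2 ratio is irradiated over control, with an exact conditional Poisson interval, and shares have Clopper-Pearson intervals. With 1 library a group no test across samples was possible. Where both libraries were compared with marker-low cells, a call needed 2-fold in each, and a count of 0 was set to a floor of 3 counts. No doublets were removed in the main values. As an alternative, the top 0.8% per 1000 barcodes by Scrublet score (scanpy 1.11.5) were left out. Thinning drew 5000 UMIs per cell. For shares, gene counts and ratios the limits were applied again to the thinned counts, which chose 569 control and 53 irradiated cells. Percentages of thinned selected cells with a UMI kept the first selection, with 614 control and 60 irradiated cells deep enough. The calling script was run on sums simulated with counting error alone, which leave out the spread between cells. Alternatives also changed the marker minimum, marker genes, upper limits, cell filter, weighting, scaling, gene minimum and fold. Python 3.11.15, numpy 2.4.6, scipy 1.17.1, pandas 2.3.3 and matplotlib 3.10.9 were used. Of 32285 gene IDs 32158 matched GENCODE M21, and 10630 of 13928 tested genes had a RefSeq promoter entry.

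The selected cells, gene lists and rules were chosen with earlier results of these data known. Genes named are the markers, the 15 highest and 15 lowest by the interval bound nearest to equality, up to 6 called genes and 3 abundant genes of each list, and the 15 genes farthest above marker-low cells, from which examples are given. Outside this rule, and chosen after their values were seen, are Pdgfra, Prrx1, Ifit1, Usp18, Gdf15, Mdm2, Ephx1, Cxcl1, Cxcl2, Cxcl14, Il6, Lif, Il1rl1, Igf2, Sox9, Acan, Comp, Runx2, Lsamp, Nrg1, Piezo2, Tnfsf11 and Has2. Some genes that the rule names are not reported here.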

Additional observations from a re-analysis of the deposited data

Results flagged for a closer look

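In total 3 genes had opposite directions in the subsets of the selected cells, with intervals of counting error that left out equality on each side. Cxcl1 had a log2 ratio of irradiated over control of 0.69 in cells with Ptx3 alone past the minimum and of -1.18 in cells with Pdzrn4 and Brinp1 past it. Cxcl2 had values of 1.33 and -1.40, and Il6 of 1.40 and -0.73. In the second subset these ratios rest on 17 irradiated cells and on 71, 21 and 19 irradiated UMIs. The difference between the subsets was not tested.

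Between the selected cells and the marker-low cells, 3 genes had opposite directions. Igf2, the fetal insulin-like growth factor, had a log2 ratio of -1.23 in the selected cells and 0.82 in marker-low cells. Its irradiated UMIs were 91 and 223, and 40.7% of the former came from 1 cell. Lsamp had log2 ratios of -2.37 and 0.72. Tnfsf11 had log2 ratios of 0.78 in the selected cells and -0.70 in marker-low cells. These differences were not tested either.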

How the results depend on the processing

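No paired analysis was possible because the labels give no replicate numbers and each group is 1 library, so no replicate could be left out either. The 3 alternatives (cells past 10 CP10K on a list of another cell type other than fat left out, each gene's highest cell left out, and only cells with Ptx3 alone past the minimum) were chosen after seeing the data. The log2 ratio of the share, -1.37, was -2.46 with Pdzrn4 and Brinp1 alone as markers (14.0% and 2.55% of collagen cells) and -0.78 without upper limits. It lay between -1.25 and -1.76 under the other alternatives that recompute it, while cells with Ptx3 alone past the minimum gave -0.57. Thinning to 5000 UMIs, which leaves fewer UMIs, gave 556 of 9931 genes higher and 438 lower, 24 genes above marker-low cells, 14 of 18 interferon-stimulated genes and 9 of 24 p53 targets. At 2-fold 628 genes were higher and 579 lower. With Ptx3 alone as the marker 40 genes were above marker-low cells. Without each gene's highest cell 783 genes were higher and 1363 lower. For each gene this left out 1 of 65 irradiated but only 1 of 646 control cells, which tends to lower the log2 ratio of irradiated over control. Of 117 genes named with such a ratio, 77 had no recorded change under any alternative in which they reached the gene minimum. For the 94 genes called in the main values, a change was a turned sign or a lost call. For the uncalled genes a change was a gained call, and their sign was not followed. Turned signs are listed here for the 94 called genes only, so that of the uncalled Saa3, given above, is not among them. With Pdzrn4 and Brinp1 alone as markers the sign turned for Apod (-0.25), Cd44 (-0.000328), Cxcl1 (-1.18), Cxcl2 (-1.40), Cxcl3 (-0.12), Il6 (-0.73), Pappa2 (-0.0150) and Spp1 (-0.17). Without upper limits it turned for Col14a1 (0.40) and Cxcl12 (0.15), and on thinned cells for Col2a1 (0.0739). Without doublet-marked cells it turned for Cxcl1 (-0.0430) and Gdf15 (-1.24), and Gdf15 was at -0.0332 without cells holding markers of cell types other than fat and at -0.0188 without its highest cell. The cause was not tested. Only 65 irradiated cells limit every value, and 1 cell can carry a rare gene.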

Other observations

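Il1rl1 and Tnfsf11 had log2 ratios of irradiated over control that were above 0 in the selected cells and at or below 0 in several neighbouring groups. Il1rl1 was at 2.19 in the selected cells, 0.73 in marker-low cells, -0.43 in fascial cells and -0.91 in contractile cells. Tnfsf11 was at 0.78, -0.70, -1.69 and -0.60 in the same order. The difference between groups was not tested.

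Nrg1, or neuregulin, was at 71.3 and 27.3 CPM in the selected cells of the 2 libraries, with 56.7% of the irradiated UMIs in 1 cell.

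Among genes with a UMI in at least 20% of the selected cells of a library, 637 of 9363 were higher and 706 lower both with and without each library's highest cell. This count was made after seeing that single cells carried several of the largest ratios, and it leaves out cells past 10 CP10K on a list of another cell type other than fat (592 control and 61 irradiated cells kept). Leaving out a gene's highest cell in each library removes a larger share of the 61 irradiated cells than of the 592 control cells. That tends to lower the log2 ratio of irradiated over control, so the step is a weak check on the 706 lower genes. Irf7, Ifi27l2a, Ifi44, Cxcl3 and Ifit1 led the higher genes, and Epb41l4a, Kcnip4, Lsamp, Gzme and Prss35 the lower genes. Cdkn1a was eighth among the higher genes, with a log2 ratio of 3.46 without its highest cells.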
